A study of Mus musculus with 6 samples.

Results

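The 8 genes described are the G1 cyclins and the kinases they bind: the D cyclins Ccnd1, Ccnd2 and Ccnd3, the E cyclins Ccne1 and Ccne2, and the cyclin-dependent kinases Cdk4, Cdk6 and Cdk2. They were chosen by name from the 41053 genes listed for each library, and all 8 were measured and passed the filter on low counts, which kept 15263 genes. The choice applied no threshold to a measured value, but earlier results of these data were known when it was made. The libraries come from cultured spermatogonial stem cells of adult mice, the cells that renew themselves and feed sperm production, grown in a medium with added growth factors. Cells of both groups received a plasmid that expresses GFP by electroporation; in the group labelled Ephb2-KO it came with a guide RNA against Ephb2, the gene of an ephrin receptor tyrosine kinase, and in the wild-type (WT) group without one. GFP-positive cells were then sorted and subcloned, so each line is a subclone of sorted cells. There were 3 lines labelled Ephb2-KO and 3 WT lines, with replicates 1 and 2 of each group at passage 20 and replicate 3 of each group at passage 18. Directional libraries were made from total RNA.

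G1 is the phase in which a cell decides whether to copy its DNA. Growth factors raise the D cyclins, which bind Cdk4 or Cdk6. These complexes start to phosphorylate the retinoblastoma protein and its relatives, and so release the E2F transcription factors. E2F then drives the E cyclins, which bind Cdk2, finish that phosphorylation and open S phase. CDK inhibitors of the Cip/Kip and Ink4 families hold both kinds of complex back. In the mouse, loss of Ccnd2 gives small testes, and Cdk2 is also needed for meiosis.

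Total counts ran from 21772404 to 33140336 in the libraries labelled Ephb2-KO and from 24928648 to 34047758 in WT libraries. A gene with 3 counts would sit at 0.0803 to 0.147 counts per 1000000 counts of the library (CPM, on library sizes scaled by TMM), far under the lowest level of any of the 8 genes. Ephb2 itself (chromosome 4, 136647539 to 136835988) had 37.1, 16.5 and 13.4 CPM in the 3 labelled lines, against 21.3, 27.1 and 10.8 CPM in WT lines. Its level was not lower in the labelled group (log2 fold change 0.18, SE 0.50, adjusted p = 1.0, edgeR quasi-likelihood test), so the mRNA level does not check the labels, and groups are called by their labels throughout. All 10 spermatogonial markers passed the filter, and their summed level was 1479 to 3129 CPM, with Dazl the most abundant (696 to 1382 CPM). The fibroblast markers were also high: all 9 passed the filter, and their sum was 4439, 4463 and 18545 CPM in the 3 labelled lines, against 2743, 3536 and 15833 CPM in WT lines, with Col3a1 the most abundant (975 to 6475 CPM). The Sertoli markers Amh, Gata1 and Dhh, the Leydig markers Cyp17a1, Hsd3b1 and Insl3 and the leukocyte marker Ptprc stayed under 1 CPM in all 6 libraries, and are named for that. The differentiating spermatogonia markers summed to 151 to 286 CPM in the libraries labelled Ephb2-KO and 133 to 238 CPM in WT libraries, with Sohlh1 under 1 CPM throughout. Mitochondrial mRNA took 1.45%, 1.75% and 0.789% of the counts in the libraries labelled Ephb2-KO, against 0.784%, 1.28% and 0.636% in WT libraries. In bulk RNA, fewer cells of a type and less RNA per cell cannot be told apart.

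Levels can be compared between genes only per length, and for that transcripts per 1000000 (TPM) were computed with the exon length given for each gene in the deposited files. Cdk4, the main partner of the D cyclins here by mRNA, was the most abundant of the 8, at 365 ± 15.1 TPM in the lines labelled Ephb2-KO and 380 ± 20.6 TPM in WT lines (SD, n = 3 each). It lay above Ccnd1, the next gene, in 6 of 6 libraries. Ccnd1 averaged 227 ± 115 TPM in the labelled lines and 185 ± 103 TPM in WT lines (SD, n = 3 each), and Ccnd2 averaged 160.1 ± 55.2 TPM in the labelled lines and 179 ± 90.9 TPM in WT lines. These neighbours did not differ beyond their spread, with Ccnd1 above Ccnd2 in 3 of 6 libraries.

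Cdk2 followed with 111 ± 48.3 TPM in the lines labelled Ephb2-KO and 102 ± 31.9 TPM in WT lines (SD, n = 3 each), under Ccnd2 in 5 of 6 libraries. Ccnd3 had 63.2 ± 4.31 TPM in the labelled lines and 57.9 ± 6.98 TPM in WT lines (SD, n = 3 each), under Cdk2 and above Ccne2 in 6 of 6 libraries. The lowest levels belonged to Ccne2, Cdk6 and Ccne1, which ran from 5.51 to 18.2 TPM over the 6 libraries. Among these low genes Ccne2 lay above Ccne1 in every library. The place of Cdk6 varied: Ccne2 lay above Cdk6 in 4 of 6 libraries, and Cdk6 above Ccne1 in 4 of 6. The place of Ccnd3 rests on its length. The deposited exons of this gene add up to 8775 bases, while its principal transcript in a later annotation has 2064, and with principal transcript lengths Ccnd3 takes the second place at 269 ± 18.3 TPM in the labelled lines and 246 ± 29.7 TPM in WT lines (SD, n = 3 each). For Cdk6 the deposited exons cover 3735 bases of a principal transcript of 11525, and the remainder lies outside the exons that were counted.

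**Figure D1:**
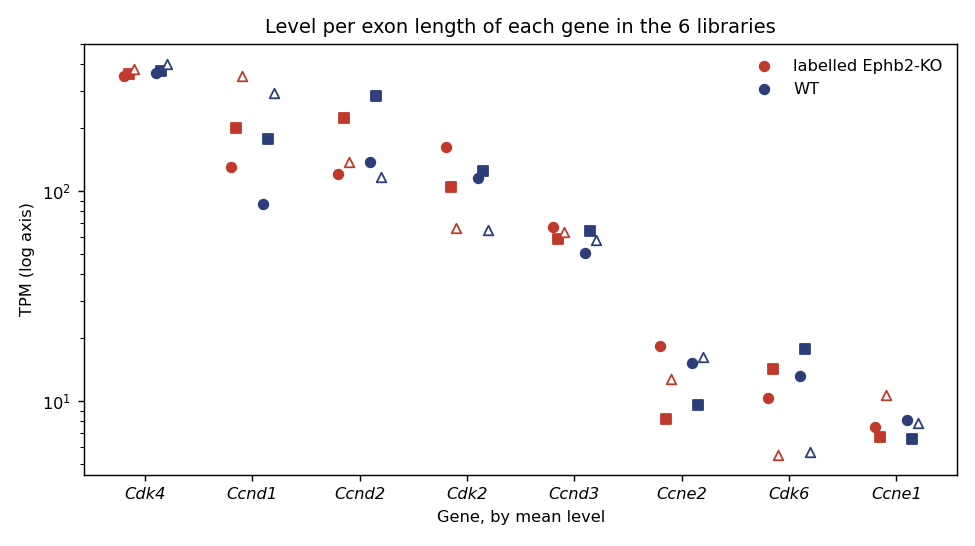
Level per length of the 8 genes in TPM (log axis) in each library, with the labelled Ephb2-KO lines beside the WT lines; circles, squares and open triangles are replicates 1, 2 and 3, with the triangles at passage 18. Cdk4 stands highest in 6 of 6 libraries, and Ccne2, Cdk6 and Ccne1 lie together at the bottom, from 5.51 to 18.2 TPM.

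Promoter windows of 300 bases, from 250 before to 50 after the transcription start, were read from RefSeq on GRCm38.p6 for 5 of the 8 genes (Ccnd3 with a pair of starts, Ccne1, Cdk2, Cdk4 and Cdk6). The motifs searched on both strands were the E-box CACGTG, to which Myc binds, the GC box GGGCGG, the letters TGACG of a cAMP response element, and the E2F sites TTTCCCGC, TTTCGCGC, TTTGCCGC and TTTGGCGC. The windows of Cdk4 (chr10:127063285-127063584, + strand) and Cdk6 (chr5:3343643-3343942, + strand) are shown because these kinases share their cyclins and differ most in mRNA level among the genes of 1 family. Capitals mark the E-box.
Cdk4: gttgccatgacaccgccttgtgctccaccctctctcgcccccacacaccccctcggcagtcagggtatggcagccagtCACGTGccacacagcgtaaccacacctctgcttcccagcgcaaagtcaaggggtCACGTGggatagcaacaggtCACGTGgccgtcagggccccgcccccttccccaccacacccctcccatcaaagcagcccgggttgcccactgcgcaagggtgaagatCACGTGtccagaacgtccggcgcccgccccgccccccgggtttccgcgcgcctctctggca
Cdk6: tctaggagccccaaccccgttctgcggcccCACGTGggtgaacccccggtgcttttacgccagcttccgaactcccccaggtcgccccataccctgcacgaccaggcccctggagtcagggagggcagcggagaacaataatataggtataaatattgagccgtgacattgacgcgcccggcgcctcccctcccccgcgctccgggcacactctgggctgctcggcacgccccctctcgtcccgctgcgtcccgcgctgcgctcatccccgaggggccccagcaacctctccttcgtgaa
Cdk4 holds 4 E-boxes, whose first bases lie at -172, -118, -98 and -11 from the start, and Cdk6 holds 1, at -220. An E-box is found in 7.2% of the 32851 windows of this length in the table, and 3 or more are found in 0.0883%. The GC box (35.7% of windows) has 3 matches in Cdk4, none in Cdk6, 6 in Cdk2, 4 in Ccne1 and 2 in each Ccnd3 window. An E2F site of these letters (2.3% of windows) is in Cdk2 alone among the windows searched, at -140. The letters TGACG (20.8% of windows) stand once in each of Cdk4, Cdk6, Cdk2 and both Ccnd3 windows. These matches describe letters in a window, and no binding was measured here.

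Among the D cyclins, Ccnd1 (chromosome 7, 144929931 to 144939869, minus strand) had the widest range. It measured 160.1, 316 and 569 CPM in lines 1, 2 and 3 labelled Ephb2-KO, against 109.6, 250.1 and 455 CPM in WT lines 1, 2 and 3. The groups overlap, because line 3 is highest and line 1 lowest in each of them. Within each replicate number, however, the labelled line was the higher one, by 0.55, 0.34 and 0.32 on the log2 scale. The fit without a replicate term gave a log2 fold change of 0.36 (SE 0.60, adjusted p = 1.0, edgeR), with a 95% interval from -1.06 to 1.78. Same-numbered libraries deviated together, so the fit was also run with the number as a block: the log2 fold change was then 0.40 (SE 0.11, 95% interval 0.15 to 0.65), a fold of 1.32 in the labelled lines. Without number 1, 2 or 3 of both groups the blocked value was 0.33, 0.44 and 0.44. Its unadjusted p was 0.00491, and the adjusted p over all genes was 0.741, so Ccnd1 was not called. In the fit without a block, the value was -0.19 without labelled line 3 and 0.96 without WT line 3. The summed fibroblast markers and the mitochondrial share were likewise higher in the labelled line within 3 of 3 numbers; their part in the Ccnd1 values was not tested.

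Ccnd2 (chromosome 6, 127125779 to 127151048, minus strand) encodes the D cyclin whose loss in mice gives small testes. It measured 219.9, 528 and 328 CPM in the lines labelled Ephb2-KO, against 259.6, 593 and 269 CPM in WT lines. Line 2 was highest in both groups and line 1 lowest in both, and the groups overlap throughout. The labelled line was lower by 0.24 and 0.17 within numbers 1 and 2, and higher by 0.29 within number 3, on the log2 scale. Over the groups, the log2 fold change was -0.06 (SE 0.44, adjusted p = 1.0, edgeR), with an interval from -1.10 to 0.98.

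Ccnd3 (chromosome 17, 47505051 to 47599691, plus strand), the third D cyclin, was the steadiest of them. It measured 189.7, 214 and 235 CPM in the lines labelled Ephb2-KO, against 147, 209 and 208 CPM in WT lines. The labelled line was higher in each number, by 0.37, 0.04 and 0.18 on the log2 scale, but WT lines 2 and 3 exceed labelled line 1. The log2 fold change was 0.18 (SE 0.22, adjusted p = 1.0, edgeR), with an interval from -0.33 to 0.69.

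**Figure D2:**
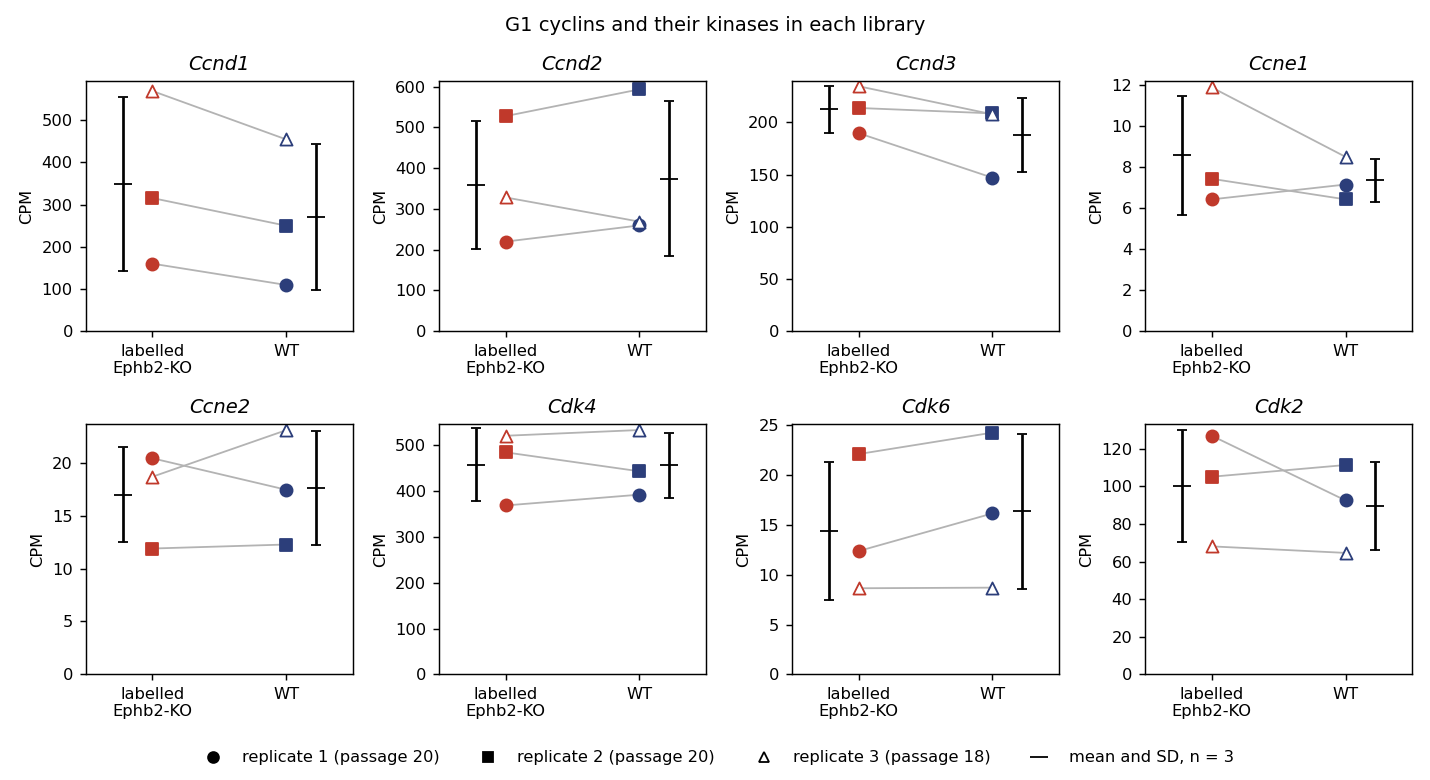
CPM of each of the 8 genes in every library, with lines labelled Ephb2-KO left of WT lines; circles, squares and open triangles are replicates 1, 2 and 3 (triangles at passage 18), grey lines join same-numbered libraries, and the bars at the sides are mean and SD (n = 3). In each gene the group ranges overlap. The numbers come in the same order in both groups for Ccnd1, Ccnd2, Cdk4 and Cdk6, and not for Ccnd3, Ccne1, Ccne2 and Cdk2. Ccnd1 is highest in number 3 of both groups and Ccnd2 in number 2.

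The E cyclins were expressed at low levels. Ccne1 (chromosome 7, 38097984 to 38107534, minus strand), an activator of Cdk2 at the start of S phase, measured 6.43, 7.43 and 11.9 CPM in the lines labelled Ephb2-KO, against 7.15, 6.43 and 8.50 CPM in WT lines. Labelled line 3 was highest, and the other 5 libraries ran from 6.43 to 8.50 CPM. Its log2 fold change was 0.22 (SE 0.37, adjusted p = 1.0, edgeR), with an interval from -0.64 to 1.09.

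Ccne2 (chromosome 4, 11191351 to 11204779, plus strand), the second E cyclin, measured 20.4, 11.9 and 18.7 CPM in the lines labelled Ephb2-KO, against 17.4, 12.3 and 23.1 CPM in WT lines. Line 2 was lowest in both groups, and the groups overlap. The difference changed sign between numbers, at 0.23, -0.05 and -0.30 on the log2 scale. Over the groups, the log2 fold change was -0.05 (SE 0.36, adjusted p = 1.0, edgeR), with an interval from -0.89 to 0.79.

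Among the kinases, Cdk4 (chromosome 10, 127063534 to 127067920, plus strand) was close to level between the groups. It measured 369, 485 and 521 CPM in the lines labelled Ephb2-KO, against 392.2, 443 and 533 CPM in WT lines. In both groups line 1 was lowest and line 3 highest. The log2 fold change was 0.01 (SE 0.23, adjusted p = 1.0, edgeR), and its interval, -0.54 to 0.55, narrowed to -0.25 to 0.25 with the replicate block.

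Cdk6 (chromosome 5, 3343893 to 3523218, plus strand), the other kinase of the D cyclins, measured 12.4, 22.1 and 8.64 CPM in the lines labelled Ephb2-KO, against 16.2, 24.3 and 8.71 CPM in WT lines. The labelled line was lower within each number, by 0.38, 0.13 and 0.01 on the log2 scale, while the ranges of the groups overlap almost wholly. Its log2 fold change was -0.19 (SE 0.50, adjusted p = 1.0, edgeR), with an interval from -1.36 to 0.99, and with the block -0.18 (SE 0.17).

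Cdk2 (chromosome 10, 128697939 to 128705051, minus strand), the kinase of the E cyclins, measured 127, 105 and 68.1 CPM in the lines labelled Ephb2-KO, against 92.6, 111 and 64.7 CPM in WT lines. Line 3 was lowest in both groups. Its log2 fold change was 0.16 (SE 0.30, adjusted p = 1.0, edgeR), with an interval from -0.56 to 0.88. Cdk2 and Cdk4 lie 1.63 Mb apart on chromosome 10. None of the 8 genes shares exon bases with another gene on its strand; Ccnd1, Ccnd3, Ccne2, Cdk4 and Cdk6 have an antisense partner that the strand-aware counting keeps apart.

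In the comparison of labelled Ephb2-KO with WT lines, 0 of the 8 genes were called at an adjusted p under 0.05, where 0% of all tested genes were called (edgeR, 0 of 15263). At an unadjusted p under 0.05 it was 0 of 8, beside 0.21% of all genes. The differences between numbers enter the spread of this fit, whose biological coefficient of variation was 0.44, against 0.166 with the replicate block, so its lack of calls says little about changes of the size seen here. DESeq2 also called 0 of 8, with 0 at an unadjusted p under 0.05, beside 0.0262% and 0.347% of all genes. With the replicate block edgeR called 0 of 8, beside 0.0262% of all genes, and 1 of 8, Ccnd1, had an unadjusted p under 0.05, beside 6.47% of all genes. The CPM ranges of the groups were separate for 0 of 8, against 2.39% of all genes. The labelled line was higher within 3 of 3 numbers for 2 of the 8 genes, Ccnd1 and Ccnd3, beside 15.6% of all genes, and lower within 3 of 3 for Cdk6 alone, beside 12.3%. The median log2 fold change of the 8 genes was 0.08, and that of all tested genes 0.01.

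**Figure D3:**
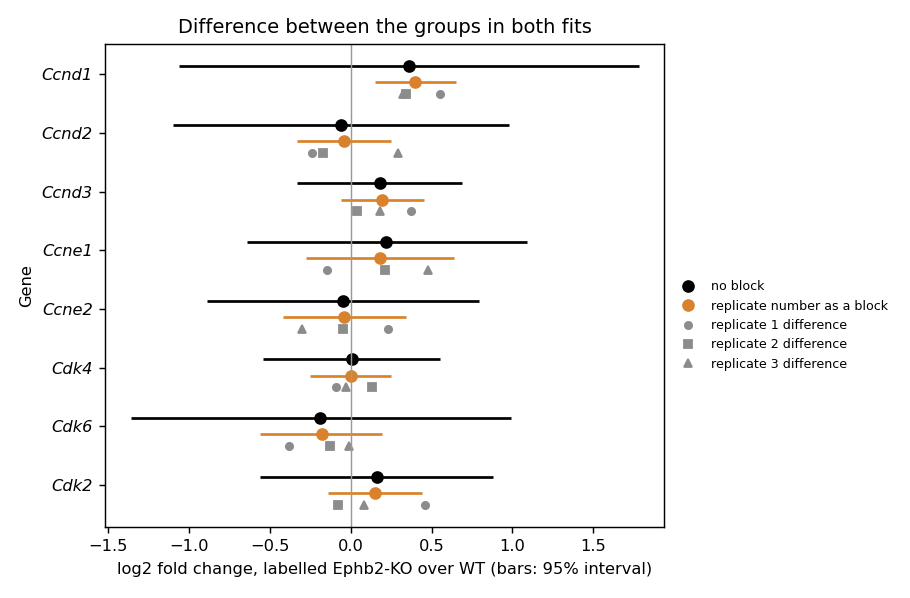
Log2 fold change of labelled Ephb2-KO over WT lines for the 8 genes, black for the fit without and orange for the fit with the replicate block, with bars for 95% intervals and grey symbols for the difference within each number; the vertical line marks 0. The Ccnd1 interval covers 0 without the block (-1.06 to 1.78) and lies above it with the block (0.15 to 0.65), and its adjusted p is over 0.05 in both.

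The balance within each family was measured as a share of its summed level per length, which does not depend on how libraries are scaled. Ccnd1 made up 41.0%, 41.3% and 63.8% of D cyclin mRNA in the lines labelled Ephb2-KO, against 31.5%, 33.8% and 62.6% in WT lines. The labelled line had the larger share within each number, by 9.51, 7.53 and 1.19 percentage points. Over the groups the difference was 6.08 points (exact two-sided permutation test, p = 0.5, where 3 against 3 lines allow no p under 0.1). That test does not pair the lines by number. With lines paired by number, an exact sign flip test gave p = 0.25, the smallest p it can reach here. Ccnd2 made up 37.8%, 46.5% and 24.7% in the labelled lines, against 50.1%, 53.9% and 24.9% in WT lines, a difference of -6.63 points (exact permutation p = 0.5) that was negative within 3 of 3 numbers. Ccnd3 made up the remainder, between 11.5% and 21.2%, and its group means differed by 0.556 points (exact permutation p = 1.0). With principal transcript lengths the Ccnd3 share is 35.1% to 53.0%, so the sizes of all D cyclin shares hold only for the deposited lengths.

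Ccne2 held the larger part of E cyclin mRNA in every library, at 70.7%, 54.9% and 54.5% in the lines labelled Ephb2-KO, against 65.0%, 59.2% and 67.4% in WT lines (difference -3.83 points, exact permutation p = 0.6). Cdk6 was a minor part of the D cyclin kinases, at 2.84%, 3.82% and 1.42% in the labelled lines, against 3.46%, 4.54% and 1.4% in WT lines (difference -0.442 points, exact permutation p = 0.8). With lines paired by number, the exact sign flip test gave p = 0.75 for the Ccne2 share and 0.5 for the Cdk6 share. The families as wholes did not separate the groups. The 3 D cyclins summed to 317, 480.03 and 555 TPM in the labelled lines, against 275, 526 and 466 TPM in WT lines (exact permutation p = 0.7). The E cyclins summed to 25.7, 14.9 and 23.4 TPM in the labelled lines, against 23.3, 16.1 and 24.1 TPM in WT lines (exact permutation p = 0.9). Cdk4 and Cdk6 together had 364, 374 and 387 TPM in the labelled lines, against 379, 389 and 409.7 TPM in WT lines (exact permutation p = 0.2). This sum was lower in the labelled line within 3 of 3 numbers, and so was the TPM of Cdk4. In CPM, however, Cdk4 was higher in labelled line 2 than in WT line 2 (485 against 443), so its direction depends on the scaling.

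**Figure D4:**
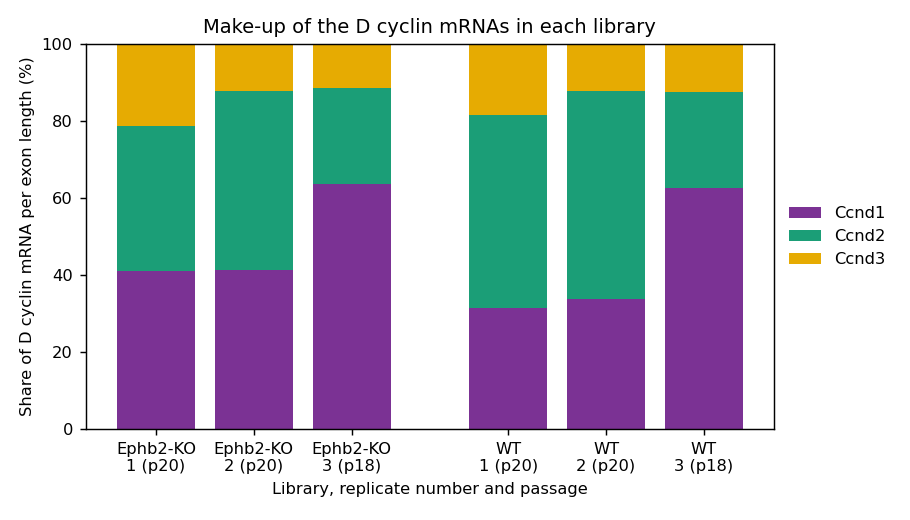
Share of Ccnd1, Ccnd2 and Ccnd3 in the summed D cyclin level per length, in percent, with a stacked bar for each library, labelled Ephb2-KO lines left of WT lines. Ccnd1 is the largest share in both replicate 3 lines at 62.6% to 63.8%, and Ccnd2 exceeds Ccnd1 in labelled line 2 and in WT lines 1 and 2.

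Most of the variation in these genes lay between replicate numbers and not between the labelled groups. The number took 69.2% to 96.0% of the sum of squares of log2 CPM over the 6 libraries, against a median of 82.6% for all tested genes, and the label took at most 20.6%, for Ccnd3. Between numbers 6 of the 8 genes were called (edgeR, adjusted p under 0.05), beside 54.2% of all genes. The pair not called was Ccnd3 (adjusted p = 0.0678) and Ccne1 (adjusted p = 0.115). Without labelled line 3 or without WT line 3 the count is 3 of 8, beside 29.9% and 28.3% of all genes. Ccnd1 was 3.84-fold higher in number 3 than in number 1, with an adjusted p of 5.44e-06 between numbers (edgeR), and its SD of log2 CPM, 0.90, exceeds that of 86.8% of tested genes. Cdk6 was 2.66-fold higher in number 2 than in number 3, and Ccnd2 2.34-fold higher in number 2 than in number 1, with adjusted p values between numbers of 0.000859 and 0.000247 in edgeR. Cdk4 and Ccnd3 varied least, with SDs of 0.22 and 0.23 that exceed those of 16.7% and 19.1% of genes, against a median SD of 0.42.

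The labels give the passage, so lines at passage 18 (replicate 3 of each group) were also set against lines at passage 20 (replicates 1 and 2) in a fit with the group as a covariate. Passage and replicate number 3 cannot be told apart in this design. The fit treats the 6 libraries as independent, although same-numbered libraries deviate together, so in effect it sets 1 number against the other 2, and its errors and p-values are likely too small. Ccnd1 was higher at passage 18, at 455 and 569 CPM, against 109.6 to 316 CPM at passage 20, with a log2 fold change of 1.30 (SE 0.36, adjusted p = 0.0352, edgeR). Cdk6 was lower, at 8.64 and 8.71 CPM at passage 18, against 12.4 to 24.3 CPM at passage 20 (log2 fold change -1.10, SE 0.33, adjusted p = 0.0473, edgeR). Cdk2 was lower as well, at 64.7 and 68.1 CPM at passage 18, against 92.6 to 127 CPM at passage 20 (log2 fold change -0.71, SE 0.16, adjusted p = 0.0181, edgeR). These were the 3 of 8 genes called, beside 25.8% of all genes, 15.4% being higher and 10.4% lower at passage 18; the same 3 had an unadjusted p under 0.05, beside 39.7% of all genes. The CPM ranges of the passages were separate for 5 of 8 genes, those 3 with Ccne1 and Cdk4, beside 53.5% of all genes.

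The calls rest on few libraries. Without labelled line 3, 0 of 8 genes were called by edgeR, beside 2.06% of all genes, and 1 of 8 had an unadjusted p under 0.05, beside 19.3%. Without WT line 3, 0 of 8 were called, beside 1.81% of all genes, and 1 of 8 had an unadjusted p under 0.05, beside 17.8%. The log2 fold changes in these fits, without labelled line 3 and without WT line 3, were 1.34 and 1.27 for Ccnd1, -1.21 and -0.99 for Cdk6, and -0.65 and -0.76 for Cdk2. Ccnd1 was also lost without labelled line 1 (adjusted p = 0.0539), and Cdk6 without line 2 of either group or with RLE scaling (adjusted p = 0.0521). The fibroblast markers moved with the passage: 9 of 9 were called higher at passage 18, beside 15.4% of all genes, with a median log2 fold change of 2.34. Some of these 9 calls did not hold without WT line 3 or without labelled line 3. The fibroblast markers summed to 15833 and 18545 CPM at passage 18, against 2743 to 4463 CPM at passage 20. The spermatogonial markers summed to 1479 and 1718.5 CPM at passage 18, against 2501 to 3129 CPM at passage 20. Of these, 6 of 10 were called lower, beside 10.4% of all genes. The part of both marker groups in the values of Ccnd1, Cdk6 and Cdk2 was not tested. The share of Ccnd1 among D cyclins was 62.6% to 63.8% at passage 18 and 31.5% to 41.3% at passage 20, or 45.1% to 47.1% and 20.1% to 30.1% with principal transcript lengths. The difference between labelled Ephb2-KO and WT lines was not shown to change with passage for any of the 8 genes (0 called by edgeR for the interaction, beside 0% of all genes; 0 at an unadjusted p under 0.05).

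Around these 8 genes, 74 genes in 6 lists were read from the same fits: CDK inhibitors, retinoblastoma and E2F proteins, activation and turnover of the kinases, later cyclins, E2F targets of DNA replication, and upstream growth signalling. For labelled Ephb2-KO against WT lines, 0 of 74 were called by edgeR, beside 0% of all genes. At an unadjusted p under 0.05 it was 0 of 74, beside 0.21%, and DESeq2 called 0, beside 0.0262%. Shares this low leave few or no calls to any list of this length. The median log2 fold change of the 74 was 0.03. With the replicate block 0 of 74 were called by edgeR, beside 0.0262% of all genes. In that fit 2 of 74 had an unadjusted p under 0.05, Cdkn2d and Orc1, a smaller share than the 6.47% of all genes. Cdkn2d, an Ink4 inhibitor of Cdk4 and Cdk6, measured 21.4, 18.0 and 34.9 CPM in the labelled lines, against 17.6, 12.0 and 26.9 CPM in WT lines. It was higher in the labelled line within 3 of 3 numbers (log2 fold change with the block 0.41, SE 0.15, unadjusted p = 0.0215, adjusted p = 0.741, edgeR). Orc1, a subunit of the complex that marks replication origins, measured 24.8, 26.3 and 16.6 CPM in the labelled lines, against 33.6, 27.9 and 25.5 CPM in WT lines. It was lower within 3 of 3 numbers (log2 fold change with the block -0.38, SE 0.16, unadjusted p = 0.0329, adjusted p = 0.741, edgeR).

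Cdkn1b, which encodes the Cip/Kip inhibitor p27, had the largest gap within 1 number among the inhibitors named. It measured 40.4, 54.3 and 75.0 CPM in the labelled lines, against 136, 54.8 and 96.3 CPM in WT lines. WT line 1 stands far above labelled line 1, while the number 2 lines are level. The log2 fold change was -0.76 (SE 0.38, adjusted p = 1.0, edgeR), and -0.71 (SE 0.40) with the block. Cdkn2b, a further Ink4 inhibitor, averaged 8.08 ± 2.55 CPM in the labelled lines and 8.74 ± 2.57 CPM in WT lines (SD, n = 3 each). E2f1, an activating E2F, had 70.4 ± 4.61 CPM in the labelled lines and 58.0 ± 9.79 CPM in WT lines (SD, n = 3 each), higher within 3 of 3 numbers. For E2f5 and E2f6, repressing E2Fs, the difference was -0.28 (SE 0.22) and -0.16 (SE 0.17) on the log2 scale.

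Of the genes that activate the kinases or turn the cyclins over, Cul1, the scaffold of an SCF ubiquitin ligase, had a log2 fold change of -0.20 (SE 0.19), and Ccnh and Cdk7, which form the CDK-activating kinase, -0.17 (SE 0.20) and -0.18 (SE 0.26). Of the later cyclins and their kinase, Ccnf, Ccnb2 and Cdk1 had values of 0.12 (SE 0.27), -0.06 (SE 0.32) and -0.05 (SE 0.28). Of the replication genes, Mybl2, a cell cycle transcription factor, had 0.33 (SE 0.44) and Tk1, thymidine kinase, -0.14 (SE 0.19). Tk1 was the single gene named from these lists with separate group ranges, at 32.6 to 37.0 CPM in the labelled lines and 37.5 to 38.8 CPM in WT lines. Separate ranges were found for 2.39% of all genes, and the genes named here were picked for the smallest p in their list. Upstream, Foxo3, Mycn and Foxo1 had 0.27 (SE 0.23), 0.28 (SE 0.37) and 0.26 (SE 0.35). None of these reached an adjusted p under 0.05 in edgeR.

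By passage, 6 of the 74 genes were called higher and 20 lower at passage 18 (edgeR), beside 15.4% and 10.4% of all genes. The replication genes among E2F targets had 0 called higher and 10 lower of 22, with a median log2 fold change of -0.62 against -0.06 for all tested genes. Among them were Mcm3 (-1.07, SE 0.20) and Mcm6 (-1.0, SE 0.19), subunits of the replicative helicase, named here after their values were seen. The CDK inhibitors had 3 higher and 1 lower of 7. Cdkn1a, which encodes the inhibitor p21, was higher at passage 18 by 2.46 (SE 0.17, adjusted p = 0.000256, edgeR) and Cdkn2c, an Ink4 inhibitor, by 1.81 (SE 0.25, adjusted p = 0.00297, edgeR), both on the log2 scale and also named after their values were seen. The third inhibitor called higher was Cdkn2d, at 0.84 (SE 0.23, adjusted p = 0.0327, edgeR). The retinoblastoma and E2F list had 1 higher (Rbl2, named after its value was seen) and 3 lower of 13, the activation and turnover list 0 and 1 of 12, the later cyclins 0 and 1 of 6 with Ccnf lower, and the upstream list 2 and 4 of 14. Without labelled line 3 or without WT line 3 a single library is left at passage 18. In both of these fits the calls did not hold in any of the 6 lists, apart from that of Cdkn1a. The passage calls of all these lists come from the fit that treats same-numbered libraries as independent. As with the cyclins, the fibroblast markers were higher in the same libraries, and their part was not tested.

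**Figure D5:**
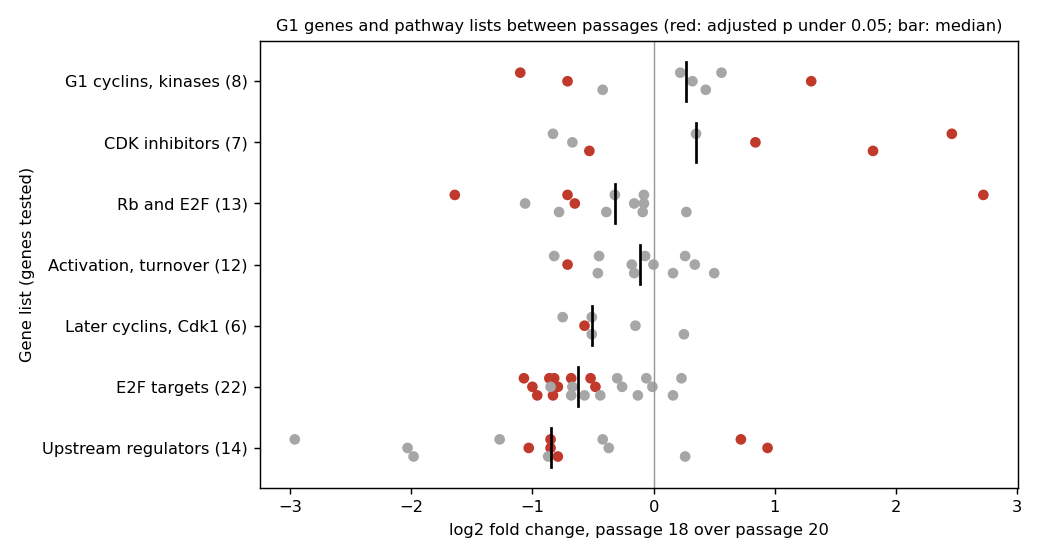
Log2 fold change of passage 18 over passage 20 for the 8 genes and the genes of the 6 lists, one point per gene, red where the adjusted p is under 0.05 in edgeR; the upright bar of each list is its median. The replication genes lie mostly under 0, with a median of -0.62, and the 8 genes have a median of 0.27 with Ccnd1 at 1.30 and Cdk6 at -1.10.

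For each gene the tested gene with the most similar log2 CPM over the 6 libraries was found among 11391 genes with a mean of at least 5 CPM. The measure is Pearson's r over 6 libraries that share their replicate numbers in pairs, so high values are common, and it is given as a description. Ccnd1 was most like Tnfaip2 (r = 0.9997), with 798 genes over 0.9. Ccnd2 was most like Hivep2 (0.9963), Ccnd3 like Fkbp10 (0.996) and Ccne1 like Dcun1d3 (0.9909). Ccne2 was most like Zfp709 (0.995), Cdk4 like Rassf1 (0.9956), Cdk6 like Nudt11 (0.9982) and Cdk2 like Dock8 (0.9983). Tnfaip2 shows the Ccnd1 pattern at a lower level, with 18.5, 40.1 and 81.2 CPM in the lines labelled Ephb2-KO, against 12.4, 30.7 and 61.5 CPM in WT lines. Cdk2 had the most company, with 1385 genes over 0.9, and Ccnd3 the least, with 208.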

How the data were processed

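The deposited values are counts per gene and library, made by the authors with featureCounts 1.4.6-p4 at strand setting 2 on the GENCODE vM3 gene models, summed by gene name, per the file headers. Reads were aligned with STAR to GRCm38.p3 and checked with FastQC, per the submitters' processing notes, with versions not given in the sources used here. The deposited files also give each gene's exon length, which sets the TPM values and shares. The sources used here do not say whether same-numbered lines share a parent culture. In fits without the number, p-values are set against the spread between these lines. In the fit with the replicate block and the test between numbers, they are set against the spread left within a number.

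Counts were filtered with filterByExpr, scaled by TMM and tested with edgeR 4.0.16 (quasi-likelihood, R 4.3.3), with Benjamini-Hochberg adjustment over all 15263 tested genes and a threshold of 0.05. CPM ratios within a number are on log2 CPM with a prior count of 2. Deviations from group means correlated between same-numbered libraries at 0.596, 0.736 and 0.85, all over 0.1, and at most 0.079 with other numbers; the pairing comes from the numbers in the sample titles and this check. Shares and sums were tested by exact permutation, and shares also by an exact sign flip test with lines paired by number. Alternatives were the replicate block, DESeq2 1.42.0, RLE and upper quartile scaling, other filters, principal transcript lengths and leaving out each library; the blocked DESeq2 fit, principal lengths and the passage interaction were added after seeing the data. The tests were run on simulated counts with 2-fold and 4-fold changes. With the number means of these libraries, the group fit without a block recovered 0% of both. The fit with the block recovered 91% and 100%, and 17 of its 208 calls were false. With equal number means, the fit without a block recovered 95% and 97%, with 13 false calls of 205. With equal means the passage fit made 21 false calls of 213, and the test between numbers 22 of 199. The counts were drawn with number means shared by both groups and the spread of the blocked fit, as that fit assumes. Smaller changes were not simulated, so the result does not carry over to changes of the size seen here.

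The 8 genes and the lists were chosen with earlier results of these data known. Named were Ephb2, the 8 genes, the 3 genes of each list with the smallest unadjusted p between groups, the most alike gene for each of the 8, the top marker of a list and the markers under 1 CPM in every library, these last after their values were seen; others are said to be chosen after their values were seen. Figures were drawn with matplotlib 3.10.9.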

Additional observations from a re-analysis of the deposited data

How the results depend on the processing

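No setting brought any of the 8 genes past the adjusted threshold of 0.05 between labelled Ephb2-KO and WT lines; for Ccnd1 the adjusted p ran from 0.208 to 1.0 over 18 settings. The count over all genes was 0 without a block and 0 in each fit that left out a library. It was 4 with DESeq2, 4 with the replicate block and 18 with DESeq2 and the block. With the block and without replicate 1, 2 or 3 of both groups it was 56, 3 and 4; the cause was not tested. The block changed no call among the 8 genes.

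The sign of small differences between labelled and WT lines turned in several settings, on the log2 scale. With a library left out, Ccnd1 ran from -0.19 to 0.96, Ccnd2 from -0.45 to 0.44, Ccne1 from -0.09 to 0.39, Ccne2 from -0.25 to 0.20, Cdk4 from -0.10 to 0.14, Cdk6 from -0.64 to 0.21 and Cdk2 from -0.05 to 0.37. Ccnd3 kept its sign, from 0.03 to 0.26. With the block, Ccnd2 was 0.06 without replicate 1 and 0.02 without replicate 2 of both groups, Ccne2 0.10 without replicate 3, Cdk4 -0.06 without replicate 2 and Cdk2 -0.0045 without replicate 1. Upper quartile scaling gave Cdk4 -0.02. The share differences ran from -1.47 to 16.1 points for Ccnd1, -15.7 to -0.828 for Ccnd2, -2.56 to 2.57 for Ccnd3, -9.18 to -1.04 for Ccne2 and -1.31 to 0.263 for Cdk6.

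Genes called for passage numbered 3935, and 284 to 4187 with a library left out, fewest without WT line 3 (284) and labelled line 3 (325). Between numbers they were 8276, and 4442 to 10084, with 4442 without WT line 3 and 4717 without labelled line 3; fewer libraries enter these fits. With 3 lines a group, shares could not reach an exact p under 0.1, or under 0.25 with lines paired by number.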
